A study of Mus musculus with 18 samples.

Results

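Lamina propria CD4 T cells that also carry CD8α were compared with CD4 T cells that carry neither CD8α nor the regulatory factor Foxp3. The comparison uses 6 of the 18 RNA libraries of the study, 3 of CD4+CD8α+ cells (LP DP) and 3 of CD4-only cells (LP SP), both taken from the layer of connective tissue under the small intestinal epithelium. Genes entered when their deposited value was at least 10 in at least 3 of these 6 libraries, which 13874 of the 38392 gene identifiers in the table met.

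All cells came from donor mice labelled C57BL/6 TNa TNb RAG1-/- Foxp3GFP, a line made by nuclear transfer from 1 regulatory T cell that had arisen in the periphery. Its T cells therefore share 1 T-cell receptor, and RAG1 deficiency keeps them from making another. Donor CD4+ CD8α- Foxp3-GFP- T cells were moved into C57BL/6 TCRa-/- TCRb-/- hosts, which lack their own αβ T cells but can hold γδ T cells, innate lymphoid cells, B cells and myeloid cells. Cells were sorted 6 weeks after transfer, from the lamina propria (LP) and from the epithelium (IEL, intraepithelial lymphocytes), as DP, SP or Foxp3+ regulatory cells (TR). Both groups compared thus share donor genotype, receptor, host and time, and differ by the CD8α gate. The labels call the 3 libraries of a group biological replicates but do not tie them to animals, so the p-values rest on the spread of these libraries alone, which may be partly technical.

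CD4 helper T cells are set on their course in the thymus by the factor ThPOK, encoded by Zbtb7b, which holds back Runx3, the factor that drives CD8 T cells and their killing program. In the intestine some mature CD4 T cells lose ThPOK, raise Runx3 and gain CD8αα homodimers, CD103 and granzymes, and come to resemble the innate-like lymphocytes that live within the epithelium. These CD4+CD8αα+ cells are best known from the epithelium. CD8αα is made from Cd8a alone, while the coreceptor of conventional CD8 T cells also needs Cd8b1.

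A normalised count is the value the authors deposited: the reads of a gene multiplied by 1 factor per library. Changes are log2 differences of normalised count plus 1, LP DP minus LP SP, with their standard error after the ± sign, and group means carry the SD over n = 3 libraries. A gene was called when its adjusted p from limma, a linear model fitted to all tested genes with Benjamini-Hochberg adjustment, was under 0.05. The fit also took in the LP TR, IEL DP and IEL SP libraries, which share in the estimate of the spread. In bulk RNA a change in level per cell and a change in the share of cells that express the gene cannot be told apart.

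Of 13874 genes, 120 were called (0.865%), 37 of them higher in LP DP (0.267%) and 83 lower (0.598%). The median change over all genes was -0.01. In all 120 called genes the 3 LP DP and 3 LP SP libraries did not overlap, which also held for 2038 of all genes tested (14.7%). With Cd8a left aside, called increases ran from 0.43 to 3.28 on the log2 scale, and 13 exceeded 4-fold. Called decreases ran from 0.41 to 6.25, and 32 exceeded 4-fold. The largest increase was that of Nek3, which reached the minimum in LP DP alone. Both 4-fold counts thus include genes, such as Nek3 and Tspan32, whose direction was fixed by the filter. When each of the 6 libraries was left out in turn, 44 genes stayed called every time, 15 higher and 29 lower. The 29 include Tspan32, Folr4 and Crim1, which reached the minimum in LP SP alone and could only be lower. The count depended on the fit: 46 genes were called when only the 6 libraries were fitted, 61 with all 18 libraries, and 342 by DESeq2. Of the called genes, 16 were among the 99 that reached the minimum in 1 group alone and so had to differ to be tested: 14 were called lower after entering through LP SP, among them Tspan32, Folr4 and Myb, and 2 higher after entering through LP DP. Their direction was fixed by the filter, and no p-value is given for them. Il22, Areg, S100a4 and S100a6 reached 10 in only 1 LP DP library and in every LP SP library. Their entry thus rested mainly on LP SP too, although p-values are given for these genes.

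**Figure D1:**
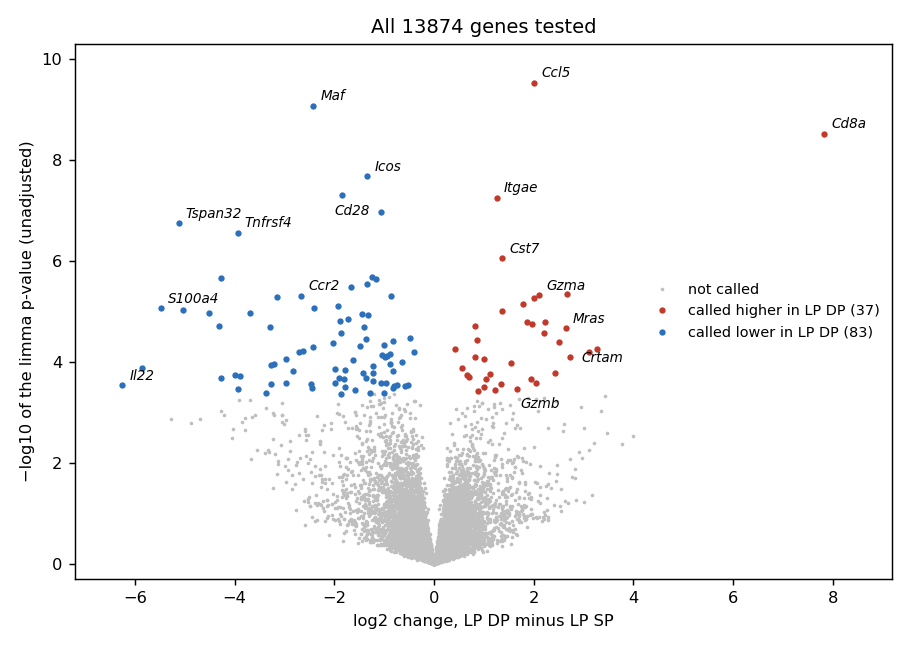
Each point is 1 of 13874 genes, with the log2 change (LP DP minus LP SP) on the x axis and the negative log10 of the unadjusted limma p-value on the y axis. Red points are the 37 genes called higher, blue points the 83 called lower, grey points the genes not called. Ccl5, Cd8a and Itgae lead on the right, and Maf, Icos and Cd28 on the left.

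The sorting gene and the lineage factors came first. Cd8a had 3744, 3411 and 3364 normalised counts in the LP DP libraries 1 to 3 and 22.3, 10.4 and 12.8 in LP SP 1 to 3, the order used for every gene, so the libraries follow the gate. Cd8b1 stood at 49.2 ± 9.10 in LP DP and 81.6 ± 4.64 in LP SP, apart but not called (limma adjusted p = 0.227), so the DP libraries carried Cd8a with little Cd8b1. Cd4 showed 761, 683 and 1017 in LP DP against 717, 1341 and 1044 in LP SP. These ranges overlap, and the Cd4 change of -0.31 ± 0.23 was not called (limma adjusted p = 0.735). Foxp3 was below the test's minimum, with 0, 2 and 1 reads in the LP DP libraries and 0, 4 and 9 in LP SP.

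The genes of ThPOK and Runx3 were not called. Zbtb7b had 2.06, 11.9 and 33.9 normalised counts in LP DP and 101, 73.1 and 38.2 in LP SP. Every LP DP library was below every LP SP library, but LP DP 3 and LP SP 3 lay close together, and the change of -2.58 ± 0.68 was not called (limma adjusted p = 0.115). Zbtb7b was called without LP DP 3 (limma adjusted p = 0.0248) and by DESeq2 (0.0485). Runx3 had 1313, 1049 and 1169 in LP DP and 1012, 725 and 1010 in LP SP, a change of 0.37 ± 0.17 that was not called (limma adjusted p = 0.489). Runx3 was thus present in the CD4-only cells as well. Runx1, its relative, fell from 559, 652 and 516 in LP SP to 293, 343 and 344 in LP DP (-0.81 ± 0.14, limma adjusted p = 0.0115). The adjusted p of Runx1 was 0.0565 without LP DP 1, 0.0552 without LP SP 2, 0.294 with all 18 libraries and 0.105 with the 6 alone.

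Among the 16 coreceptor and lineage genes, all tested, Cd8a was called higher, Runx1 and Myb lower, and the median change was -0.45. Myb, a progenitor factor, had 0, 2.55 and 1.88 in LP DP and 22.3, 23.9 and 15.1 in LP SP (-3.28 ± 0.62). It entered through LP SP alone, so it could only be lower. Gata3, the helper type 2 factor, showed 289, 296 and 375 in LP DP against 615, 971 and 675 in LP SP. The groups did not overlap, but the change of -1.22 ± 0.28 was not called (limma adjusted p = 0.0675). Gata3 was called with a minimum of 50 (limma adjusted p = 0.0474), with the replicate block (0.0403) and by DESeq2 (0.00187).

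Receptors typical of intraepithelial and NK cells rose where they were called. Itgae (chromosome 11, 73090583 to 73147446 on GRCm38), which encodes CD103, the integrin chain that binds E-cadherin on epithelial cells, had 3839, 3902 and 4048 in LP DP and 1654, 1650 and 1604 in LP SP. The libraries of each group lay close together and the groups far apart, a rise of 1.26 ± 0.12 (limma adjusted p = 0.000130). Cd160, an inhibitory receptor of gut lymphocytes and NK cells, had 2830, 2920 and 2668 in LP DP against 1754, 1735 and 1288 in LP SP (0.83 ± 0.13, limma adjusted p = 0.00701). The Cd160 call was lost with all 18 libraries in the fit (adjusted p = 0.862) and with the 6 alone (0.0801). Cd69, a retention marker of tissue cells, was not called and overlapped between the groups: it stood at 5193 ± 553 in LP DP and 5262 ± 695 in LP SP.

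Cd244 and Crtam rose more than 4-fold. Cd244, the receptor 2B4, had 902, 720 and 865 in LP DP and 233, 88.8 and 147 in LP SP (2.5 ± 0.42, limma adjusted p = 0.0115). Crtam, an adhesion receptor of cytotoxic CD4 and CD8 T cells, had 131, 102 and 204 in LP DP and 21.1, 8.21 and 45.2 in LP SP (2.74 ± 0.49, limma adjusted p = 0.0176). In both genes every LP DP library was above every LP SP library. Cd244 had an adjusted p of 0.0516 without LP DP 1 and 0.0519 without LP SP 2, and Crtam had 0.0571, 0.0757, 0.0518 and 0.0502 without LP DP 1, LP DP 3, LP SP 1 and LP SP 2. It was 0.23 for Cd244 with all 18 libraries, and for Crtam 0.138 with the 6 alone and 0.185 with a pseudocount of 0.1. Of the 19 genes in the list of intraepithelial and NK-type receptors, all tested, these 4 were called higher, 0 lower, and the median change was 0.32. Klrd1, the CD94 chain of NK receptors, had 73.2, 63.7 and 273 in LP DP and 11.7, 39.6 and 73.0 in LP SP, ranges that overlap.

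Of 5 granzyme genes tested, which arm killer cells, 2 rose in LP DP, Gzma and Gzmb. Gzma (chromosome 13, 113093825 to 113100981), a serine protease of killer-cell granules, had 41207, 30405 and 30074 in LP DP and 10993, 6112 and 6878 in LP SP, a rise of 2.12 ± 0.29 (limma adjusted p = 0.00359). Gzmb (chromosome 14, 56258838 to 56262260), the protease that starts target-cell death, had 11982, 8842 and 12161 in LP DP and 3518, 2833 and 4053 in LP SP (1.67 ± 0.35, limma adjusted p = 0.0432). Every LP DP library was above the highest LP SP library for both. With all 18 libraries in the fit the adjusted p of Gzma was 0.0723. The Gzmb call was close to the threshold, and its adjusted p ran from 0.0704 to 0.161 when any 1 of the 6 libraries was left out, and was 0.318 with all 18. It was also lost with a pseudocount of 0.1 (0.055), quantile normalisation (0.0583) and the replicate block (0.0614). The other granzyme genes, Gzmk (0.59 ± 0.64), Gzmm (1.38 ± 0.85) and Gzmc (0.90 ± 0.72), were not called.

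Other granule genes were divided between called and not called. Cst7, an inhibitor of the proteases that activate granzymes, had 1940, 1786 and 2056 in LP DP and 609, 865 and 795 in LP SP (1.36 ± 0.16, limma adjusted p = 0.00122). Ctsc, the protease that activates granzymes, had 1211, 1071 and 1435 against 702, 873 and 701 (0.70 ± 0.14, limma adjusted p = 0.0316). The adjusted p of Ctsc was 0.0900, 0.12, 0.108 and 0.110 without LP DP 1, LP DP 3, LP SP 1 and LP SP 3, and 0.156 with the 6 libraries alone. Prf1, the pore former perforin, had 335, 219 and 353 in LP DP against 103, 210 and 271 in LP SP, and its change of 0.71 ± 0.58 was not called (limma adjusted p = 0.777). Of the 20 cytotoxic granule genes, all tested, 4 were called higher and 0 lower, and the median change was 0.63. The T-box factors that drive the killing program were not called: Tbx21 changed by 0.58 ± 0.29 and Eomes by 1.11 ± 1.07, with overlapping libraries in both.

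The chemokine genes Ccl5 and Ccl4 rose. Ccl5 (chromosome 11, 83525778 to 83530518), which draws T cells and monocytes, had 37570, 28274 and 32654 in LP DP and 8355, 6702 and 9475 in LP SP. This rise of 2.01 ± 0.12 had the smallest adjusted p of all genes (limma, 4.11e-06). Ccl4, which also draws T cells and monocytes, had 2722, 2147 and 2285 in LP DP and 490, 272 and 962 in LP SP (2.23 ± 0.34, limma adjusted p = 0.00655), a call lost with the 6 libraries alone (0.0932). Of 13 chemokine genes 10 were tested, of which 2 were called higher and 0 lower, with a median change of -0.03. Ccl3, the neighbour of Ccl4, had 257, 68.0 and 273 against 50.4, 16.4 and 45.2 and was not called (2.29 ± 0.60, limma adjusted p = 0.114).

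**Figure D2:**
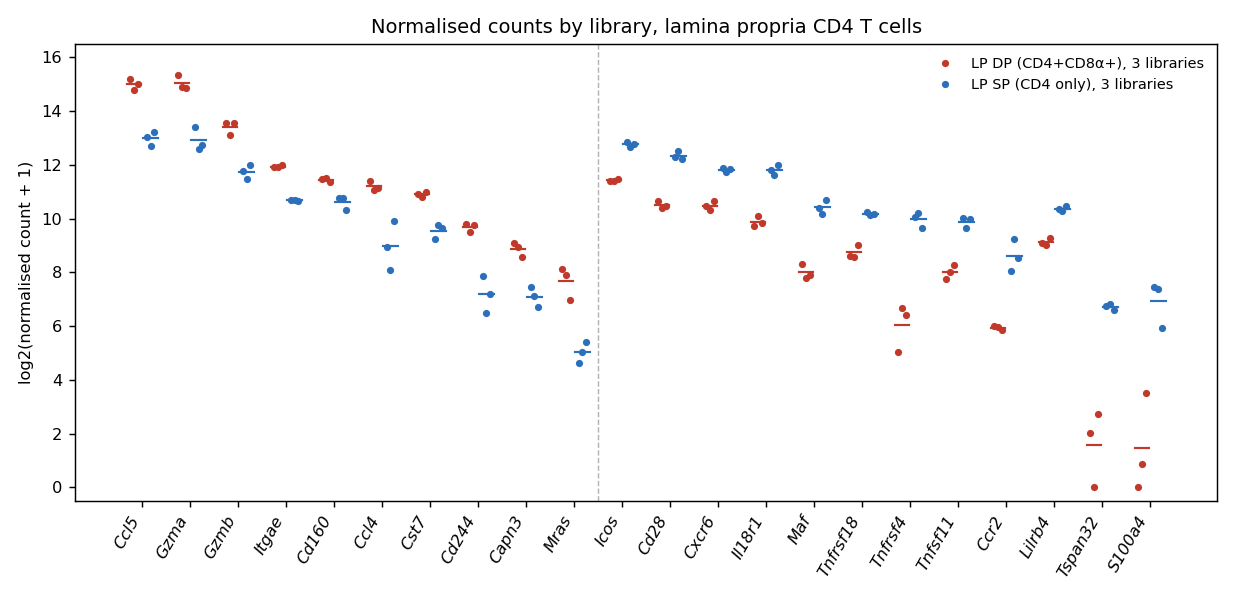
Each point is 1 library, with log2(normalised count + 1) on the y axis and genes on the x axis; red is LP DP, blue is LP SP, and short lines are group means of 3 libraries. Left of the dashed line the LP DP points of Ccl5 to Mras lie above all LP SP points, and right of it the LP DP points of Icos to S100a4 lie below them.

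The 250 bases before the transcription start are shown for 4 of the raised genes, because RUNX factors are known regulators of this program and the core of their site, TGTGGT or ACCACA on the other strand, lies in each. Sequences are from RefSeq on GRCm38.p6, written 5′ to 3′ along the gene, with the RUNX core in capitals. Cd160 has 2 annotated starts and the more upstream one is printed.
Gzma, chr13:113100982-113101231, minus strand: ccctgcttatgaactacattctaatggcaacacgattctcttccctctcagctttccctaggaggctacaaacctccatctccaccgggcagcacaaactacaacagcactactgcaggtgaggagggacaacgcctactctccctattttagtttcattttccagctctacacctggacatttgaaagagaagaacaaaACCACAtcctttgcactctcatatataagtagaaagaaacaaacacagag
Gzmb, chr14:56262335-56262584, minus strand: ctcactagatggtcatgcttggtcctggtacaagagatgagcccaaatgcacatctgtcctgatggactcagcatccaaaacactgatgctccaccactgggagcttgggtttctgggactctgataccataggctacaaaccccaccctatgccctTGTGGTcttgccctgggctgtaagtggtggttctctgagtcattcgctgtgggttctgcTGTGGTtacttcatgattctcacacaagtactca
Cst7, chr2:150570165-150570414, plus strand: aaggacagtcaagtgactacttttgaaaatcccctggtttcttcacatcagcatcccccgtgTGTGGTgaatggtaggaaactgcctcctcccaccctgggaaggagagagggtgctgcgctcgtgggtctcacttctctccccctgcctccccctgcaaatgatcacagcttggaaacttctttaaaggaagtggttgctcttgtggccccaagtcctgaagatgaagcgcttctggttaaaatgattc
Cd160, chr3:96829352-96829601, minus strand: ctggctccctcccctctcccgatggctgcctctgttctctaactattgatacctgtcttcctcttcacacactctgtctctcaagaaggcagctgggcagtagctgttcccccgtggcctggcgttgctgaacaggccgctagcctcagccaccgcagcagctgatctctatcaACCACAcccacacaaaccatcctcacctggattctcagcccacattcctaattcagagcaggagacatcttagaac

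In the Gzma window the core sits at position -50 counted from the start, in Gzmb at -93 and -34, in Cst7 at -188 and in Cd160 at -76. Other called genes go the other way. The window of the lowered gene S100a6 holds the core 3 times and that of the lowered gene Tspan32 holds it 2 times. The windows of the raised genes Ctsc and Scin hold it 0 times. The windows printed are thus examples and do not compare raised with lowered genes. The same window is shown for 2 of the lowered genes, picked because neither form of the core occurs in them.
Tnfrsf4, chr4:156013445-156013694, plus strand: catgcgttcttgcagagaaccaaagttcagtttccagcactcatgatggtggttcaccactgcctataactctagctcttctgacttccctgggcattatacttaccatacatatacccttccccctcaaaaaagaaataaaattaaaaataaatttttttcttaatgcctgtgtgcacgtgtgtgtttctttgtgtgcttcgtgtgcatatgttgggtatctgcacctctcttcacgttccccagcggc
Ccr2, chr9:124101933-124102182, plus strand: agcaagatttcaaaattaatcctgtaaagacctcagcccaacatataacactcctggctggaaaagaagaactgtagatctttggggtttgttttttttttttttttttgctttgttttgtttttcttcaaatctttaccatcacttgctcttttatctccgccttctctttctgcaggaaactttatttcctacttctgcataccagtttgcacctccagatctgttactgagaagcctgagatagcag

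Over all called genes, RefSeq windows were matched for 21 of 36 raised genes without Cd8a, giving 26 windows, of which 9 held the core (34.6%). Of the lowered genes, 80 have a symbol of their own and 61 of these matched, and 16 of 91 windows held it (17.6%). The share over all 32851 windows was 14%. No window was found for the raised genes Ccl5, Itgae, Ccl4 and Cd244 or for the lowered genes Cd28, Maf and Icos, so these shares leave them out. Windows and not genes were counted, and both Cd160 windows are among the 9. The core of T-box factors, AGGTGT or ACACCT, was in 11.5% of the raised, 12.1% of the lowered and 11.8% of all windows. A match of 6 letters is a description of the sequence and not a bound site.

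Cd28 and Icos, costimulatory receptors of helper T cells, fell in LP DP. Cd28 (chromosome 1, 60716800 to 60773359), the receptor whose signal a naive T cell needs beside its T-cell receptor, had 1627, 1340 and 1400 in LP DP and 5002, 5936 and 4750 in LP SP, a fall of 1.84 on the log2 scale (SE 0.17, limma adjusted p = 0.000130). Icos (chromosome 1, 60977927 to 61000320), its inducible relative, had 2698, 2722 and 2861 against 7426, 6576 and 6942 (-1.34 ± 0.12, limma adjusted p = 7.34e-05). In both genes the LP DP libraries lay in a narrow band far under the lowest LP SP library.

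Of the TNF receptor family, Tnfrsf4, Tnfrsf18, Tnfrsf25 and Tnfrsf26 fell as well, whereas Cd27, Tnfrsf9, Tnfrsf1b, Tnfrsf14 and Fas were tested and not called. Tnfrsf4 (chromosome 4, 156013843 to 156016612), encoding OX40, had 32.0, 101 and 84.8 in LP DP and 1081, 1183 and 809 in LP SP (-3.94 ± 0.42, limma adjusted p = 0.000425). Its neighbour Tnfrsf18, encoding GITR, had 395, 380 and 520 against 1209, 1135 and 1152 (-1.45 ± 0.21, limma adjusted p = 0.00519). The LP DP and LP SP libraries were far apart for both. Tnfrsf25, encoding DR3, had 28.9, 8.49 and 17.9 against 204, 157 and 129 (-3.21 ± 0.60, limma adjusted p = 0.0217). Without any 1 of LP DP 2, LP DP 3, LP SP 1, LP SP 2 and LP SP 3 the adjusted p of Tnfrsf25 was between 0.0514 and 0.0894, and it was 0.283 with all 18 and 0.213 with a pseudocount of 0.1. Tnfrsf26, outside the list of CD28 and TNF receptor family costimulation, had 42.3, 82.4 and 167 against 463, 1235 and 511 (-2.97 ± 0.54, limma adjusted p = 0.0189). Its adjusted p was 0.0772, 0.0608 and 0.0807 without LP DP 1, LP DP 2 and LP SP 2, and 0.094 with the 6 alone.

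Among ligands by which T cells act on other cells, Tnfsf11 and Cd40lg fell, and Tnfsf8, Tnfsf10, Tnfsf14, Fasl, Tnf and Ltb were tested and not called. Tnfsf11, encoding RANKL, which drives B-cell follicle and M-cell development in the gut, had 212, 258 and 312 in LP DP against 1032, 796 and 1022 in LP SP (-1.87 ± 0.30, limma adjusted p = 0.00863). Cd40lg, the ligand that licenses B cells and dendritic cells, had 365, 347 and 534 against 710, 1223 and 979 (-1.22 ± 0.24, limma adjusted p = 0.0285). Its adjusted p was 0.107, 0.108, 0.121 and 0.0958 without LP DP 1, LP DP 2, LP SP 2 and LP SP 3, 0.128 with all 18 libraries and 0.118 with the 6 alone. Of 25 genes in the list of CD28 and TNF receptor family costimulation 24 were tested: 8 were called lower and 1 higher, with a median change of -0.68. The eighth lowered gene was Cd2, an adhesion receptor (-0.89 ± 0.16), with an adjusted p of 0.0167 that was between 0.0632 and 0.0738 without LP DP 1, LP DP 2, LP SP 2 or LP SP 3 and 0.112 with the 6 alone. The raised one was Cd6, a receptor on T cells that binds ALCAM, with 1141, 650 and 918 in LP DP against 359, 349 and 530 in LP SP (1.12 ± 0.22, limma adjusted p = 0.0295). Without LP DP 1, LP DP 3, LP SP 1 or LP SP 2 its adjusted p was between 0.0958 and 0.12, and it was 0.166 with all 18 libraries, 0.158 with the 6 alone and 0.0559 with library weights.

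Maf had the smallest p-value of the lowered genes. Maf (chromosome 8, 115682942 to 115707794), a factor of follicular helper, type 17 and regulatory cells, had 315, 219 and 238 in LP DP and 1336, 1167 and 1646 in LP SP, a fall of 2.42 (SE 0.16, limma adjusted p = 5.82e-06). Ikzf3, encoding Aiolos, went the other way, with 975, 919 and 1146 in LP DP against 514, 500 and 720 in LP SP (0.82 ± 0.15, limma adjusted p = 0.0176). Maf stayed called in all 24 alternative fits, whereas Ikzf3 had adjusted p-values of 0.0563, 0.0772, 0.0749 and 0.0769 without LP DP 1, LP DP 3, LP SP 1 and LP SP 2, 0.185 with all 18 libraries and 0.146 with the 6 alone. These were the only 2 called among 26 tested of 29 helper transcription factors, whose median change was -0.06. Ahr, a sensor of dietary and microbial ligands that keeps gut lymphocytes in place, had 306 ± 20.1 in LP DP and 352 ± 151 in LP SP and was not called (-0.10 ± 0.30).

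Receptors for homing and chemokines were lower where they were called. Ccr2, a receptor for inflammatory monocyte chemokines (chromosome 9, 124101950 to 124113557), had 62.9, 62.0 and 57.4 in LP DP and 262, 600 and 373 in LP SP (-2.66 ± 0.37, limma adjusted p = 0.00359). Cxcr6, which binds CXCL16, had 1425, 1272 and 1604 against 3790, 3440 and 3688 (-1.35 ± 0.18, limma adjusted p = 0.00287). The LP DP libraries lay below all LP SP libraries for both, and Ccr2 varied little within LP DP. Ccr4, a receptor of type 2 and regulatory cells, fell by 2.72 (SE 0.48, limma adjusted p = 0.0155), with an adjusted p of 0.0609 without LP DP 1 and 0.0732 without LP SP 2. Itgb1, the integrin β1 chain, fell by 1.37 (SE 0.27, limma adjusted p = 0.0321), with adjusted p-values of 0.0900, 0.0926, 0.0667 and 0.12 without LP DP 1 and LP SP 1, 2 and 3, 0.665 with all 18 libraries and 0.155 with the 6 alone. Of 25 homing receptors 20 were tested; 4 were called lower, 0 higher, and the median change was -0.81.

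Both chains of the interleukin-18 receptor fell together. Il18r1 had 836, 1102 and 925 in LP DP against 3622, 3168 and 4096 in LP SP (-1.93 ± 0.28, limma adjusted p = 0.00477). Il18rap had 779, 934 and 638 against 2269, 2178 and 2092 (-1.49 ± 0.25, limma adjusted p = 0.0131), and its adjusted p was 0.0504, 0.0568 and 0.0502 without LP DP 1, LP DP 3 and LP SP 2, and 0.0574 with all 18 libraries. They were the 2 called of 28 tested cytokine receptors from a list of 30, whose median change was -0.34. Tgfbr2, the receptor for TGF-β, had 731 ± 103 in LP DP and 812 ± 118 in LP SP, and 0 of 18 tested genes of the TGF-β list (22 genes) were called by limma, with 3 at an unadjusted p under 0.05, 0 called by edgeR and 1 by DESeq2.

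Among helper cytokines, Il22 and Areg were called lower. Il22, a cytokine that acts on epithelium, had 13.4, 0 and 0 in LP DP and 526, 76.9 and 154 in LP SP (-6.25 ± 1.29, limma adjusted p = 0.0386). Areg, a growth factor for epithelium, had 7.22, 42.5 and 5.65 against 111, 124 and 80.0 (-2.97 ± 0.61, limma adjusted p = 0.0369). The groups were apart in both genes, but neither call was firm. Each gene reached 10 in only 1 LP DP library, so its entry into the test rested mainly on LP SP. The adjusted p of Il22 was between 0.0701 and 0.138 without any 1 library other than LP DP 1, 0.127 by edgeR and 0.406 by DESeq2, and it was also lost with the 6 libraries alone (0.0932), a pseudocount of 0.1 (0.161), a minimum of 50 (0.0858) and library weights (0.0529). That of Areg was between 0.0787 and 0.134 without any 1 library other than LP DP 2, 0.0596 with all 18, 0.174 with the 6 alone, 0.0605 with a pseudocount of 0.1 and 0.0559 with library weights.

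Ifng, the type 1 cytokine, had 834, 1254 and 852 in LP DP and 948, 1150 and 1175 in LP SP, ranges that overlap. Its change of -0.17 ± 0.45 was not called (limma adjusted p = 0.944). Il10 had 26.8, 13.6 and 2.83 against 62.1, 55.2 and 48.7, apart but not called (-2.27 ± 0.94, limma adjusted p = 0.414). Il17a, below the minimum for the test, had 0 reads in every LP DP library and 33, 4 and 18 reads in LP SP. Of 18 cytokine genes 11 were tested, 2 were called lower and 0 higher. The 11 changes were below 0, with a median of -2.24, against -0.01 over all genes. The larger falls were of genes low in LP DP, such as Il21 and Lta, with means of 7.73 and 7.40 there against 46.6 and 42.4 in LP SP. Ifng and Ltb, with means of 980 and 993 in LP DP, changed by only -0.17 and -0.20. Il4 entered the test through LP SP alone and so had to be lower in LP DP, and the entry of Il22 and Areg rested mainly on LP SP. The shared sign of the 11 is thus partly set by the filter and is not a result about the list.

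Genes known from regulatory cells were counted too, although Foxp3 itself was hardly read in either group. Of the 22 regulatory cell genes 16 were tested, 6 were called lower and 0 higher, and the median change was -0.34; Tnfrsf4, Tnfrsf18, Icos and Areg are among the 6 and belong to other lists as well. Folr4, encoding a folate receptor relative found on regulatory T cells, had 8.25, 5.10 and 0 in LP DP and 49.2, 95.5 and 91.6 in LP SP (-4.32 ± 0.68). Folr4 entered through LP SP alone, so it could only be lower. Capg, an actin-capping protein, fell by 1.58 (SE 0.34, limma adjusted p = 0.0445), with adjusted p-values of 0.0980, 0.149, 0.133 and 0.103 without LP DP 1, LP DP 3, LP SP 1 and LP SP 3, 0.221 with the 6 alone and between 0.0529 and 0.0572 in 5 further settings. The levels in LP TR were 913 ± 219 for Folr4 and 5523 ± 449 for Capg. Ikzf2, encoding Helios, was 555 ± 18.7 in LP DP and 380 ± 169 in LP SP and was not called.

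Tspan32 and S100a4 were close to 0 in LP DP. Tspan32, a tetraspanin of blood cells, had 3.09, 0 and 5.65 in LP DP and 105, 112 and 95.0 in LP SP (-5.12 ± 0.53); it entered through LP SP alone, so it could only be lower. S100a4, a calcium-binding protein of motile and memory cells, had 0, 0.850 and 10.4 against 177, 168 and 60.3 (-5.47 ± 0.79, limma adjusted p = 0.00485), a call lost with the 6 libraries alone (0.0774). S100a6, its neighbour on chromosome 3, had 7.22, 16.1 and 1.88 against 169, 215 and 42.9 (-3.98 ± 0.78, limma adjusted p = 0.0299), and its adjusted p was between 0.0817 and 0.127 without LP DP 1, LP DP 3, LP SP 1 or LP SP 2, 0.117 with the 6 alone and 0.0559 with library weights. LP SP 3 had the lowest LP SP value in all 3. S100a4 and S100a6 reached 10 in only 1 LP DP library, so their entry into the test also rested mainly on LP SP. The S100, annexin and galectin list had 19 of 24 genes tested, 2 called lower, 0 higher, and a median change of -0.07. S100a10 had means of 1679 in LP DP and 1573 in LP SP, and S100a11 of 347 and 385, with neither called. Lilrb4, an inhibitory receptor, fell by 1.24 (SE 0.16, limma adjusted p = 0.00240), and Gp49a, its near-identical neighbour, by 1.07 (SE 0.11, limma adjusted p = 0.000215); reads may have been split between these copies.

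No gene of the lists for metabolism and growth was called by limma. Among 19 glycolysis genes 0 were called, with 2 at an unadjusted p under 0.05 and a median change of -0.23, and edgeR and DESeq2 also called 0. Among 18 sterol synthesis genes 0 were called by any of the 3 tools and 0 had an unadjusted p under 0.05, with a median of -0.04. Among 23 tested proliferation genes of 24, 0 were called by limma and edgeR, 1 by DESeq2 and 3 had an unadjusted p under 0.05, with a median of 0.16. The immediate early and dissociation list had 26 of 27 genes tested and 2 called lower, Atf3 and Dusp2, whose calls were lost when any 1 of the 6 libraries was left out, with adjusted p-values between 0.0519 and 0.171. The interferon response list had 28 of 30 tested and 1 called lower, Ifitm2 (-2.63 ± 0.46, limma adjusted p = 0.0151), which had an adjusted p of 0.0631 without LP DP 2 and 0.0697 without LP SP 3. Inhibitory receptors had 15 of 16 genes tested, Cd160 and Cd244 called higher and Lilrb4 lower, with a median of -0.07. Lag3, an inhibitory receptor that binds MHC class II, had 129, 102 and 214 in LP DP and 30.5, 12.7 and 67.2 in LP SP, apart but not called (2.20 ± 0.49, limma adjusted p = 0.0575). Lag3 was called without LP SP 3 (limma adjusted p = 0.0147), with a pseudocount of 5 (0.0432), a minimum of 50 (0.0372) and the replicate block (0.0128), and by DESeq2 (0.0033). Of 29 tested genes of T-cell receptor signalling (32 listed) Cd6 alone was called, with a median of -0.18, and of 14 tested naive and stem-like genes (16 listed) Myb alone, with a median of -0.67. All lists were chosen with earlier results of these data known, so their counts describe them and test nothing.

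**Figure D3:**
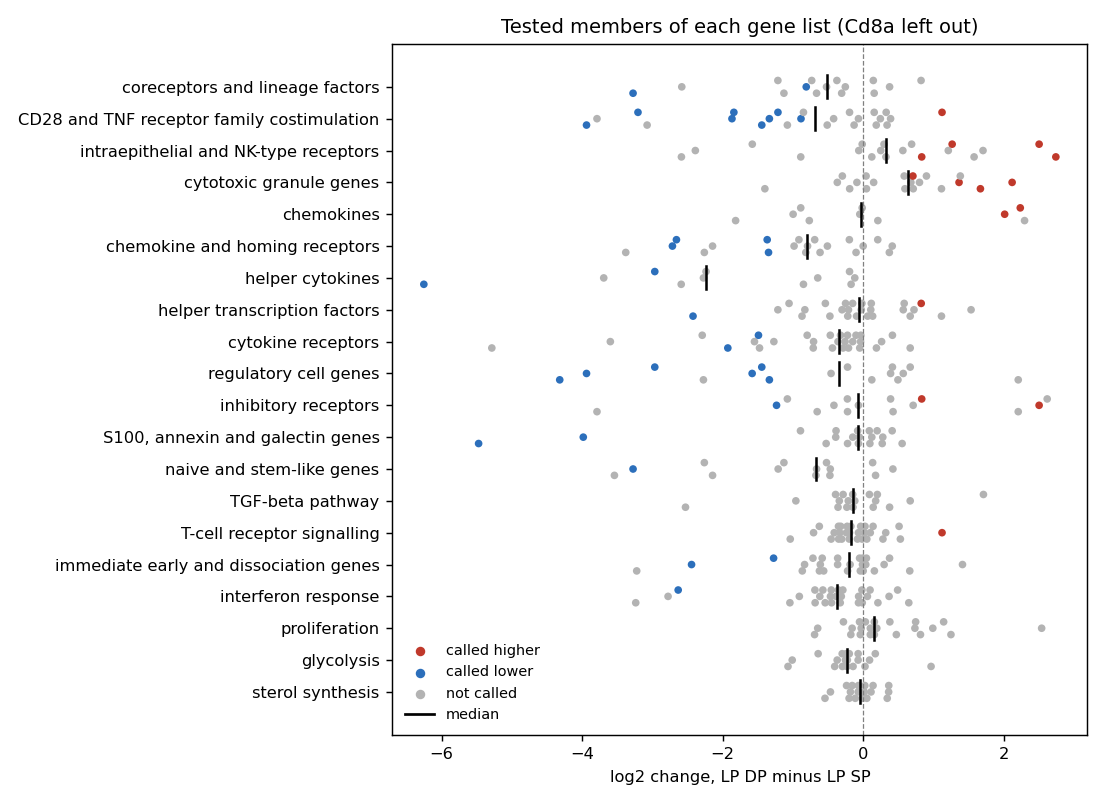
Each point is 1 tested gene of the list named on the y axis, placed by its log2 change (LP DP minus LP SP) on the x axis; red is called higher, blue called lower, grey not called, and black bars are list medians, with Cd8a left out. Called genes of the cytotoxic and NK-type lists lie to the right. Those of the costimulation, homing and cytokine lists lie to the left, except Cd6 of the costimulation list, which lies to the right. The metabolic lists hold no called gene, with medians of -0.23 for glycolysis and -0.04 for sterol synthesis.

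Markers of other cells were examined beside these results. Summed T-cell markers ran from 24481 to 26829 normalised counts in LP DP and from 25409 to 29653 in LP SP. Summed γδ T-cell markers were higher in LP DP, from 765 to 872 against 352 to 427. Most of this was Tcrg-C4, a constant segment of the T-cell receptor γ locus, with 723, 662 and 653 in LP DP and 159, 207 and 161 in LP SP (1.95 ± 0.39, limma adjusted p = 0.0329, between 0.0722 and 0.107 without any 1 of the 6 libraries and 0.0748 with all 18). Of the other γδ markers, Sox13 was at 0 in all 6 libraries, Blk and Tcrg-V7 were at most 1.49, and Trdv4 ran from 91.3 to 152 in LP DP and from 150 to 186 in LP SP. Trdc, the constant segment of the receptor δ chain, was not among the deposited gene symbols, so it could not be examined. The other constant segments were low: Tcrg-C1 had 4.12, 1.70 and 9.42 in LP DP and 5.86, 50.8 and 47.5 in LP SP, with the higher values in LP SP 2 and 3, and Tcrg-C2 had 4.12, 6.80 and 11.3 against 0, 15.7 and 4.64. Constant segments of this locus resemble each other, so reads may have been split among them, and the part of γδ T cells in the higher NK-type and granule genes was not tested.

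The remaining marker sums are given in the same way. Myeloid markers ran from 167 to 511 in LP DP and from 294 to 758 in LP SP, with LP DP 2 and LP SP 2 the highest of each. Stromal and endothelial markers ran from 59.8 to 118 against 146 to 173. This gap was Pecam1, with 11.3, 58.6 and 33.0 in LP DP and 98.4, 93.3 and 115 in LP SP: without it the sums were 48.4, 59.5 and 64.0 against 48.0, 76.9 and 58.0, which overlap, and Col3a1, Pdgfrb and Cdh5 were at 0 in all 6. B and plasma cell markers ran from 79.9 to 96.1 against 43.3 to 106, and epithelial markers from 295 to 499 against 173 to 450, mostly Cdh1. Innate lymphoid markers, mostly Id2 and Il7r, ran from 11152 to 12518 against 10880 to 14652, mast cell and erythrocyte markers from 0.900 to 16.1 against 2.20 to 25.5, and markers of conventional CD8 T cells from 3498 to 3826 against 152 to 196, which is the sorted Cd8a. The part of the myeloid signal and of Pecam1-expressing cells in the genes lower in LP DP was not tested.

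The same gate was applied in the epithelium, in 6 libraries that share none with the lamina propria pair. There, IEL DP against IEL SP gave 32 called genes (0.231%). Of the 119 genes called in the lamina propria, Cd8a left aside, 111 had the same direction in the epithelium (93.3%), against 7075 of the 13754 genes not called (51.4%). The epithelial changes were smaller: the median of the 36 raised genes was 1.61 in the lamina propria and 0.55 in the epithelium, and that of the 83 lowered genes was -1.79 and -0.87. Genes chosen for passing a threshold in 1 site tend to be larger there. Called in both sites were 20, of which Ccl5 and Ikzf3 were raised and 18 lowered, among them Maf, Cd28, Icos, Il18r1, Il18rap, Tnfrsf18, Tnfrsf25, Tnfsf11, S100a4 and Tspan32.

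The difference between the sites was itself tested and called 0 genes by limma, with a smallest adjusted p of 0.115 and 883 genes at an unadjusted p under 0.05. By edgeR 0 genes were called, and by DESeq2 32. Ccl5 and Gnpda1 had the smallest p-values. Ccl5 rose by 2.01 in the lamina propria and by 0.85 in the epithelium (difference 1.16 ± 0.17, unadjusted p = 1.38e-05), where IEL SP stood at 21960 ± 1725 normalised counts. Cd160 had means of 3759 in IEL DP and 3421 in IEL SP, with an epithelial change of 0.14 (difference 0.69, limma adjusted p = 0.575). Runx1 had means of 361 in IEL DP and 329 in IEL SP, and its epithelial change was 0.13 (difference -0.95, limma adjusted p = 0.391). Zbtb7b was called in the epithelium, at a mean of 1.25 in IEL DP and 67.1 in IEL SP (-4.91, limma adjusted p = 0.00893), and its difference between the sites was not called (2.33, limma adjusted p = 0.739).

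**Figure D4:**
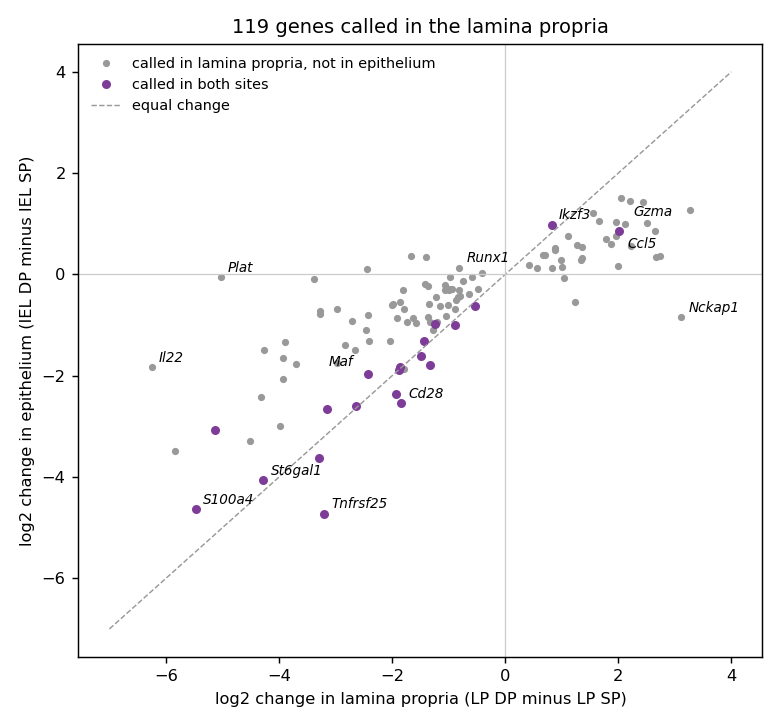
Each point is 1 of the 119 genes called in the lamina propria, with its log2 change there (LP DP minus LP SP) on the x axis and its change in the epithelium (IEL DP minus IEL SP) on the y axis. Purple points are the 20 genes called in both sites, grey points those called in the lamina propria and not in the epithelium, and the dashed line marks equal change; 111 points share their sign.

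Levels in the other sorted groups are set beside those of LP DP. Itgae had 1636 ± 27.9 in LP SP, 2380 ± 289 in LP TR, 3929 ± 107 in LP DP, 4078 ± 562 in IEL SP and 6070 ± 823 in IEL DP, so the means of LP DP and of the CD4-only cells of the epithelium differed by less than the SD of the wider group. Cd244 had 6.49 ± 5.33 in LP TR, 156 ± 72.6 in LP SP, 829 ± 95.9 in LP DP, 861 ± 77.7 in IEL SP and 1750 ± 202 in IEL DP. Gzma had 7244 ± 3102 in LP TR, 7994 ± 2625 in LP SP, 28030 ± 3245 in IEL SP, 33890 ± 6334 in LP DP and 56070 ± 5136 in IEL DP. In each of these genes the LP DP and IEL SP means differed by less than that too, and LP SP was below both. Other called genes differed by more. Icos had 2760 ± 88.2 in LP DP and 874 ± 52.3 in IEL SP, Ccl5 32830 ± 4650 and 21960 ± 1725, and Cxcr6 1434 ± 166 and 4082 ± 951. Maf had 4048 ± 336 in LP TR, 1383 ± 243 in LP SP, 532 ± 76.5 in IEL SP, 258 ± 51.0 in LP DP and 135 ± 6.21 in IEL DP. Tnfrsf4 had 5761 ± 907 in LP TR, 1024 ± 193 in LP SP, 72.6 ± 36.1 in LP DP, 53.1 ± 17.8 in IEL SP and 12.3 ± 6.01 in IEL DP. In IEL TR, whose libraries differed more from each other, Itgae had 3397 ± 498, Cd244 14.2 ± 18.1, Gzma 5812 ± 4333, Maf 3613 ± 394 and Tnfrsf4 2633 ± 816. LP DP against IEL SP was not tested, and the levels are only set side by side because their comparisons share libraries.

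**Figure D5:**
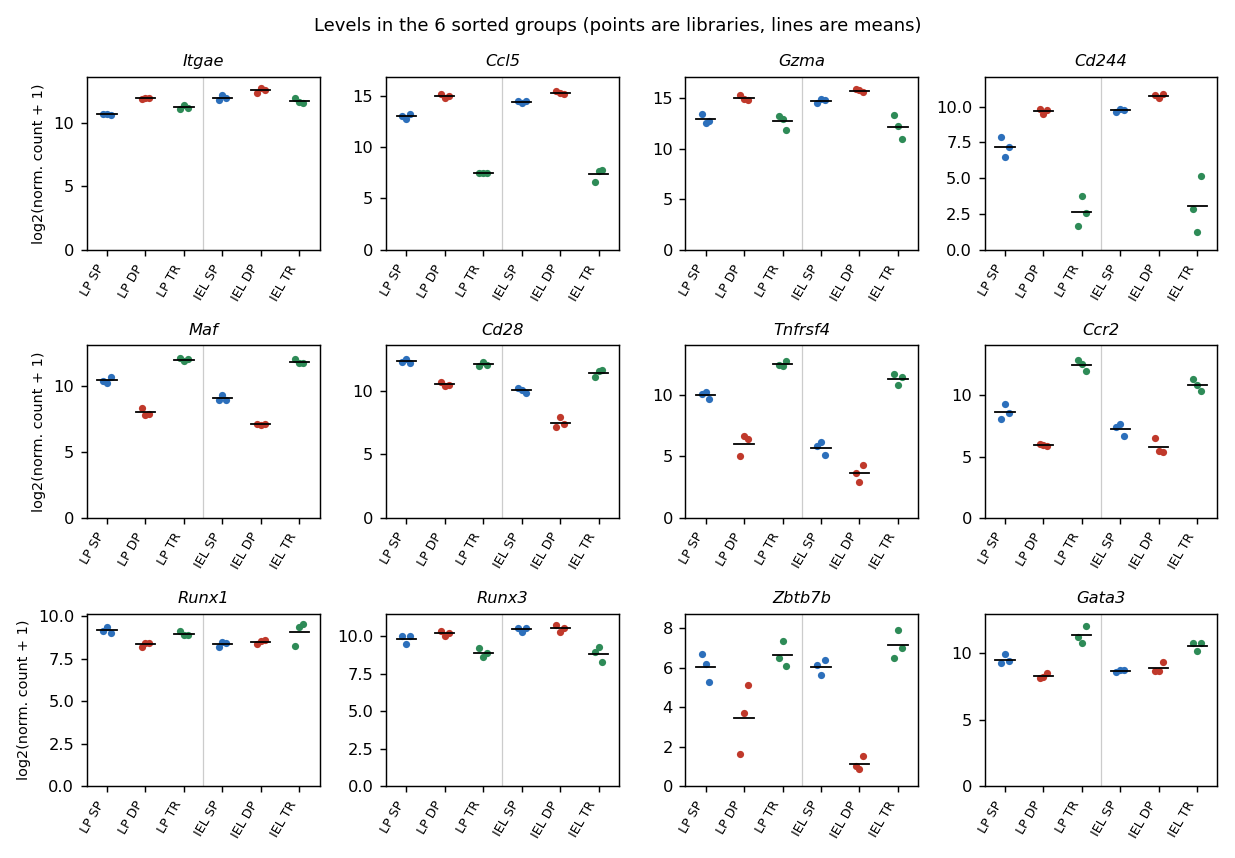
Points are single libraries and lines are means of 3 libraries, with log2(normalised count + 1) on the y axis and the 6 sorted groups on the x axis, 1 panel per gene. LP DP lies near IEL SP for Itgae, Cd244, Gzma and Tnfrsf4, and Zbtb7b spreads widely in LP DP, from 2.06 to 33.9 normalised counts, while it is near 0 in IEL DP.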

How the data were processed

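Messenger RNA of sorted CD4 T cells was sequenced from Nextera XT libraries. The signal deposited by the authors is 1 normalised value per gene and library. TopHat, HTSeq and mm10 (GRCm38) are named, per the submitters' processing notes, without versions; how the factors were computed and whether counting used strand are not given in the sources used here. In each library every deposited value above 0 (100%) was a multiple of a common unit to within 0.1 of that unit. Dividing by that unit recovered 5211828 to 7984462 reads per library among the 6 compared (median 6211586), with normalised totals from 5959369 to 6239267. These limit the precision of low genes, and counts of 0 cover counting error only. GENCODE M21 held 36639 of the 38392 identifiers, and 1125 lacked a symbol.

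The log2(value + 1) of 13874 genes was fitted with limma 3.58.1 (R 4.3.3, trended and robust) over 15 libraries of 5 groups. IEL TR was left out because its libraries differed more (lowest and highest correlation 0.799 and 0.881, and in the remaining groups 0.924 and 0.949). With 3 libraries against 3 an exact permutation test cannot go below 0.1, so none was run. edgeR 4.0.16 and DESeq2 1.42.0 were run on the recovered reads as alternatives; edgeR called 130 genes. The fit was tested on simulated data. Named genes are the 14 largest changes in each direction whose higher group had a mean of 50 or more and whose libraries did not overlap, called members among the 5 smallest p-values of each list, and a fixed set of lineage genes and cytokines, not all of which are reported here; genes named outside this rule (Prf1, Ccl3, Cd40lg, Cd2, Capg, S100a10, S100a11, Gp49a, Gnpda1, Tcrg-C4 and those under other observations) were chosen after their values were seen. The members and lists were chosen with earlier results of these data known. Same-numbered libraries were not taken as pairs in the main fit, and the labels do not tie libraries to animals. The correlations of their residuals were weak but all positive, from 0.0116 to 0.112, and 1 of 30 exceeded 0.1. These values do not settle whether a number marks a shared batch. A fit with the number as a block, the replicate block, is given as an alternative.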

Additional observations from a re-analysis of the deposited data

How the results depend on the processing

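The 120 called genes became 61 with all 18 libraries in the fit, 46 with only the 6 libraries compared, 342 by DESeq2 and between 64 and 89 when 1 of the 6 libraries was left out; of the 46 calls from the 6 libraries alone, 38 were among the 120, and of the DESeq2 calls 119 were. Without LP DP 1 the count was 64 and without LP SP 2 it was 68. The cause of these differences was not tested. Calls among list members went from 40 to 24, 26 and 71 in the first 3 settings and to between 22 and 34 when 1 library was left out. Pseudocounts of 0.1 and 5 gave 94 and 150 calls, a minimum of 50 gave 126, no filter 122, equal totals 108, quantile normalisation 122, library weights 104 and edgeR 130, and the replicate block gave 174, of which 115 were among the 120. After subtraction of group means, each of the 15 libraries in the fit correlated best, on average, with libraries of other groups that bear its number. This is a hint from the data and not from the design. The test of the difference between sites called 1 gene, Ccl5, with the replicate block and 32 by DESeq2, and 0 in every other setting run. In all 24 other fits of the comparison, 6 of them without 1 epithelial library, 20 genes were called, 5 higher and 15 lower. The 5 include the sorted Cd8a, and the 15 include Tspan32, which entered through LP SP alone and could only be lower. Cd69 and Ahr, which were not called, changed sign when 1 library was left out: Cd69 ran from -0.087 without LP DP 2 to 0.090 without LP SP 2, and Ahr from -0.504 without LP SP 2 to 0.180 without LP SP 1. At this depth genes with fewer than 10 normalised counts in most libraries could not be compared.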

Other observations

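Called genes outside the lists, picked here after their values were seen, included receptors for lipid mediators and enzymes. Ptger2, a receptor for prostaglandin E, had 0, 0 and 0.940 normalised counts in LP DP and 46.9, 41.8 and 10.4 in LP SP (-4.52 ± 0.67). Plat, encoding tissue plasminogen activator, was at 0 in all 3 LP DP libraries and at 28.1, 64.2 and 17.4 in LP SP, while it was also near 0 in both epithelial groups. St6gal1, which adds sialic acid to surface glycoproteins, had 1.03, 0.850 and 0 against 25.8, 54.5 and 17.4 (-4.28 ± 0.55) and was called lower in the epithelium too. Ptger2, Plat and St6gal1 entered the test through LP SP alone, so in the lamina propria they could only be lower. Odc1, the first enzyme of polyamine synthesis, had 733, 1588 and 995 against 3644, 4349 and 2694 (-1.73 ± 0.26, limma adjusted p = 0.00608), a call lost with the 6 libraries alone (0.0801).

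Genes outside the lists were also among the largest increases by the naming rule. Rad51d, a DNA repair gene, had 88.7, 145 and 73.5 in LP DP against 14.1, 17.2 and 12.8 in LP SP (2.67 ± 0.36, limma adjusted p = 0.00359). Mras, a small GTPase, had 281, 241 and 123 against 23.4, 32.1 and 41.7 (2.65 ± 0.42, limma adjusted p = 0.00722). Capn3, a calpain protease best known from muscle, had 547, 494 and 384 against 175, 137 and 104 (1.79 ± 0.25, limma adjusted p = 0.00447). The groups were apart in these 3 because the naming rule required it. Each call held without any 1 of the 6 libraries. The call was lost with all 18 libraries for Rad51d (limma adjusted p = 0.559) and Capn3 (0.872), and with a pseudocount of 0.1 for Mras (0.236).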
